A study of Mus musculus with 50 samples.

Results

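CC chemokines are small secreted proteins that call leukocytes out of the blood and through tissue. The 10 examined here, Ccl2, Ccl3, Ccl4, Ccl5, Ccl7, Ccl8, Ccl20, Ccl22, Ccl25 and Ccl28, were chosen by name from the 19494 genes measured in mouse colon, and each had 1 probe set on the array. RNA from whole colon of mice aged 10 to 12 weeks was hybridised to 50 Affymetrix arrays, 5 in each of 10 groups of genotype and title-number series. The mice were kept under specific pathogen-free conditions on regular chow. IEC-KO denotes deletion of a floxed gene in intestinal epithelial cells. The sources used here do not name the Cre driver. FADD links death receptors to caspase-8, a protease that starts apoptosis and restrains necroptosis. Necroptosis runs through the kinase RIPK3 and the membrane-breaking protein MLKL, and the sensor ZBP1, which binds foreign or abnormal nucleic acids, can activate RIPK3.

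The array titles run in 2 number series, 1-30 and 86-124, whose meaning the labels do not state. Series 1-30 held Fadd fl/fl controls and FADD IEC-KO, the latter alone, with Zbp1 -/- (FADD IEC-KO Zbp1 -/-) or with Mlkl -/- (FADD IEC-KO Mlkl -/-). It also held CASP8 IEC-KO, alone and as CASP8 IEC-KO Mlkl -/-. Series 86-124 held Casp8 fl/fl controls, both single knockouts, and mice that lacked FADD and RIPK3 in the epithelium (FADD IEC-KO RIPK3 IEC-KO). In the labels, Zbp1 -/- and Mlkl -/- are written without IEC, in the form of whole-body nulls, so loss in immune cells and loss in epithelium cannot be told apart in those mice. No group carried Zbp1 -/- or Mlkl -/- alone. The floxed control of a series matched only 1 of the genes deleted in the epithelium. It matched Fadd and not Casp8 in series 1-30, and Casp8 but neither Fadd nor Ripk3 in series 86-124. Replicates are named by the number in the array title.

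Chemokines act by binding seven-helix receptors on leukocytes. CCL2, CCL7 and CCL8 are monocyte attractants, and mouse CCL8 is also a ligand of CCR8. CCL3, CCL4 and CCL5 draw macrophages, neutrophils and T cells. CCL20, CCL25 and CCL28 are made by gut epithelium and bind CCR6, CCR9 and CCR10, and CCL22 binds CCR4 and comes largely from dendritic cells and macrophages.

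The deposited values are log2 signals, with array medians between 6.41 and 6.47. Group means of Fadd were 6.14 to 6.39 in the FADD IEC-KO groups and 7.30 to 7.61 elsewhere, and those of Casp8 were 8.98 to 9.14 in the CASP8 IEC-KO groups and 10.20 to 10.80 elsewhere. Mlkl was lowest in the Mlkl -/- groups, with means of 7.17 and 7.31. Ripk3 averaged 6.68 ± 0.13 (SD, n = 5) in FADD IEC-KO RIPK3 IEC-KO against 8.09 ± 0.52 in FADD IEC-KO and 6.60 ± 0.19 in Casp8 fl/fl of its series. Zbp1 averaged 5.49 ± 0.50 (SD, n = 5) in FADD IEC-KO Zbp1 -/- against 7.29 ± 0.61 in FADD IEC-KO and 5.68 ± 0.19 in Fadd fl/fl of its series. For these 2 genes the deleted group lay near the floxed control, so the signal does not check the deletion beyond the level of the control. In whole tissue, fewer cells of a type and less RNA per cell cannot be told apart. Each number in a title was taken as 1 mouse, which the labels do not state, so the p-values measure the spread between these samples.

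The sequences before the transcription start are shown for 3 members, because they cover the contrast of the data: Ccl8 and Ccl3 had the largest mean rises with FADD loss in series 1-30 and Ccl20 had none that passed the test. RefSeq (GRCm38.p6) windows of 250 bases before to 50 bases after the start were held for 6 of the 10 members, 7 windows in all. Both strands were searched for an NF-kappaB motif (GGG, 3 bases of any kind, TTCC), an interferon-stimulated response element (ISRE: GAAA, 2 bases of any kind, GAAA), a gamma-activated site (GAS: TTC, 3 bases of any kind, GAA), an AP-1 motif (TGANTCA) and, added after the windows had been read, a TATA box (TATAAA). The 250 bases before the start are printed 5′ to 3′ on the gene's strand, with any match in capitals. The windows lie at chr11:82114935-82115184 (plus strand) for Ccl8, chr11:83649379-83649628 (minus strand) for Ccl3 and chr1:83116516-83116765 (plus strand) for Ccl20.
Ccl8: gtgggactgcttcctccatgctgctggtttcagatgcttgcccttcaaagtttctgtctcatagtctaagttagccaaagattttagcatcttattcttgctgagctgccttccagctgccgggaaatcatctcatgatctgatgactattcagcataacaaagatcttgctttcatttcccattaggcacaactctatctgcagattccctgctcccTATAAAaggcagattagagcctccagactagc
Ccl3: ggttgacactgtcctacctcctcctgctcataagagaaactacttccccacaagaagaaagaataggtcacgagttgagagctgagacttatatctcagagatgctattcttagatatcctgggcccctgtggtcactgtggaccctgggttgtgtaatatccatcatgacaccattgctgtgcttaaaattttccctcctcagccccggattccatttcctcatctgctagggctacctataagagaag
Ccl20: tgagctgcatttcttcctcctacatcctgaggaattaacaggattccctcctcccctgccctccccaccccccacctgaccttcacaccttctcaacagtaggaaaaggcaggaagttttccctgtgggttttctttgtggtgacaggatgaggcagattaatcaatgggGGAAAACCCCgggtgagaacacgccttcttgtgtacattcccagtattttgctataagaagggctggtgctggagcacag
The capitals in Ccl8 are a TATA box at positions -32 to -27 from the start, and none of the other 4 motifs was found in its 300 bases. None of the 5 was found in the Ccl3 window. The capitals in Ccl20 are an NF-kappaB match on the minus strand, at positions -80 to -71. Ccl28 held an AP-1 match after its start, 1 of the 2 Ccl25 windows held a TATA box, and Ccl22 held no match. Of 32851 windows of the same length, 5.56% held the NF-kappaB motif, 3.44% the ISRE, 8.3% the GAS, 7.81% the AP-1 motif and 13.6% the TATA box. A match describes the letters only.

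Ccl8 was higher in every FADD IEC-KO colon than in every floxed control of its series, and it was the single member called as different from the floxed control when Zbp1 was also lost. In Fadd fl/fl its log2 signal was 4.62, 4.37, 4.99, 4.50 and 4.29 in replicates 26 to 30. In FADD IEC-KO of the same series it was 6.85, 7.05, 7.26, 6.52 and 6.41 in replicates 21 to 25. The lowest knockout array stood more than 1 log2 unit above the highest control. The difference was 2.26 ± 0.25 log2 (SE), a 4.80-fold rise (limma, adjusted p = 2.51e-07 over all genes).

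The second series gave the same direction. Casp8 fl/fl arrays 86, 91, 98, 105 and 119 read 4.57, 4.30, 4.76, 4.44 and 4.49. FADD IEC-KO arrays 89, 95, 117, 120 and 124 read 6.15, 6.24, 7.18, 5.84 and 6.70, again with no overlap. The rise was 1.91 ± 0.25 log2, or 3.76-fold (limma, adjusted p = 3.83e-06). The 2 effects differed by -0.35 log2 (95% interval -1.07 to 0.36), and that difference did not pass the test (limma, adjusted p = 0.773). Between the series, 0 of 10 members differed in their FADD effect by limma, beside 0.123% of all genes, and 0 of 10 in their caspase-8 effect, beside 0.00513%. At an unadjusted p under 0.05 these counts were 2 (Ccl22 and Ccl25) and 0.

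Read across the members, FADD loss changed 6 of 10 in series 1-30: Ccl2, Ccl3, Ccl4, Ccl5 and Ccl8 rose and Ccl25 fell. Of all genes tested in that comparison, 18.7% were called in either direction and 8.59% were called higher. In series 86-124, Ccl8 and Ccl22 rose and Ccl25 fell, 3 of 10 against 11% of all genes. The median member difference was 0.44 log2 in series 1-30 and 0.34 in series 86-124, beside medians over all genes of -0.02 and -0.03. The arrays of knockout and control did not overlap for Ccl8 and Ccl3 in series 1-30, against 9.2% of all genes, and for Ccl8 and Ccl25 in series 86-124, against 6.99% of all genes. In a fit of the compared arrays alone, Ccl8 was the 1 member still called in series 1-30, and Ccl2, Ccl3, Ccl4, Ccl5 and Ccl25 were not (adjusted p = 0.0676 to 0.209).

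**Figure D1:**
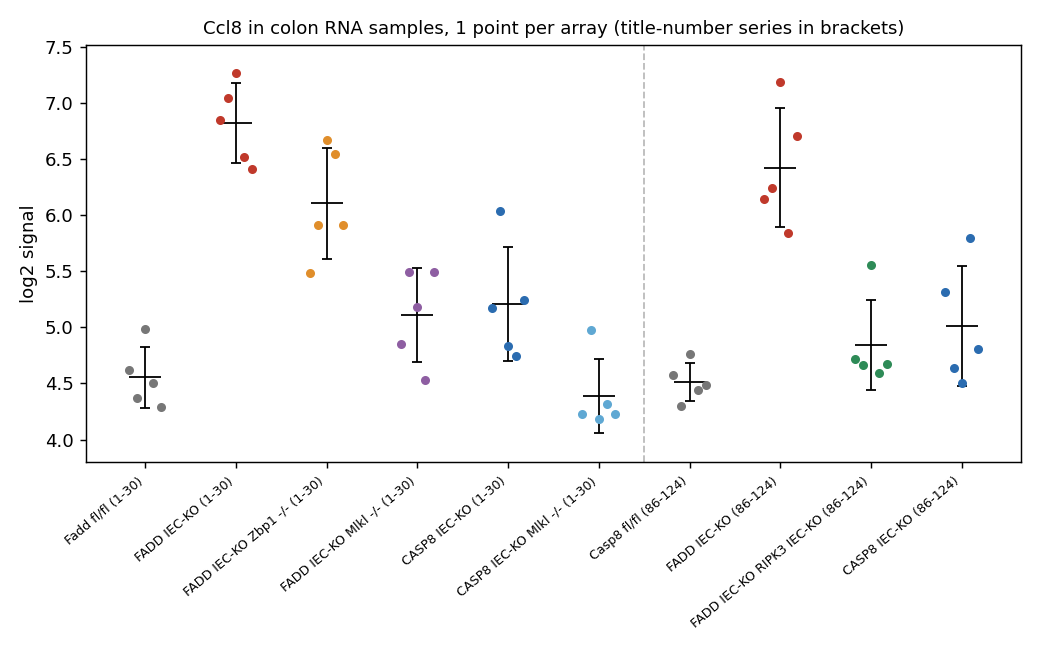
Log2 signal of Ccl8 (vertical axis) in each of the 10 groups, 1 point per array; black bars are the group mean and SD of 5 arrays, and the dashed line parts the 2 title-number series. FADD IEC-KO arrays lie between 5.84 and 7.26 and FADD IEC-KO Zbp1 -/- arrays between 5.48 and 6.67, all above the floxed arrays, which end at 4.99.

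Ordered by mean, Ccl8 was highest in FADD IEC-KO (6.82 ± 0.35, SD, n = 5, in series 1-30 and 6.42 ± 0.53 in series 86-124) and then in FADD IEC-KO Zbp1 -/- (6.10 ± 0.49). CASP8 IEC-KO of series 1-30 followed at 5.21 ± 0.51, then FADD IEC-KO Mlkl -/- at 5.11 ± 0.42, CASP8 IEC-KO of series 86-124 at 5.01 ± 0.54 and FADD IEC-KO RIPK3 IEC-KO at 4.84 ± 0.40. The lowest groups were Fadd fl/fl (4.55 ± 0.27), Casp8 fl/fl (4.51 ± 0.17) and CASP8 IEC-KO Mlkl -/- (4.39 ± 0.33). Of the gaps between neighbours in this order, the one below FADD IEC-KO Zbp1 -/-, of 0.90 log2, exceeded the larger SD of the pair, and no other did. The 2 sorts of floxed control differed by -0.04 log2 for Ccl8 (limma, adjusted p = 0.977), and 0 of 10 members differed between them by limma, against 0.0359% of all genes (1, Ccl25, at an unadjusted p under 0.05).

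With Zbp1 lost as well, Ccl8 stayed far above the control. FADD IEC-KO Zbp1 -/- replicates 1 to 5 read 5.48, 5.92, 6.67, 6.55 and 5.91. All 5 lay above the highest Fadd fl/fl array, while 2 of them lay within the range of FADD IEC-KO. The rise over Fadd fl/fl was 1.55 ± 0.25 log2 (95% interval 1.04 to 2.06), or 2.93-fold (limma, adjusted p = 0.000350), which is 68.5% of the log2 rise of FADD IEC-KO. It was the 1 member of 10 called in that comparison, in which 1.07% of all genes were called, and at an unadjusted p under 0.05 there were 3 (Ccl8, Ccl22 and Ccl25). The difference from FADD IEC-KO itself was -0.71 ± 0.25 log2 (95% interval -1.22 to -0.21), which did not pass (limma, adjusted p = 0.0577), and passed without FADD IEC-KO replicate 24 or 25 or without Zbp1 -/- replicate 3 or 4 (-0.85 to -0.79, adjusted p = 0.0329 to 0.0466).

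Ccl8 was much lower where Mlkl or epithelial RIPK3 was lost with FADD. FADD IEC-KO Mlkl -/- replicates 11 to 15 read 4.86, 5.49, 5.18, 4.53 and 5.49, all below the lowest FADD IEC-KO array of the series. Ccl8 fell by 1.71 ± 0.25 log2 (limma, adjusted p = 0.000214). FADD IEC-KO RIPK3 IEC-KO replicates 88, 93, 112, 113 and 123 read 4.72, 4.67, 5.56, 4.59 and 4.67, all below FADD IEC-KO of series 86-124. Ccl8 fell by 1.58 ± 0.25 log2 there (limma, adjusted p = 0.000810), the 1 member called against 0.754% of all genes. At an unadjusted p under 0.05 there were 4 (Ccl3, Ccl8, Ccl22 and Ccl25). Over the floxed control, 0.56 log2 of Ccl8 remained in FADD IEC-KO Mlkl -/- (95% interval 0.05 to 1.07, limma adjusted p = 0.475). In FADD IEC-KO RIPK3 IEC-KO, 0.33 log2 of Ccl8 remained (-0.18 to 0.84, limma adjusted p = 0.691). In these 2 co-deletions and in CASP8 IEC-KO Mlkl -/-, 0 of 10 members were called against the floxed control by limma, beside 0.159%, 0.0769% and 0.0462% of all genes. At an unadjusted p under 0.05 they were Ccl8 in the first, Ccl22 and Ccl25 in the second and Ccl25 in the third.

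The direct comparison of the Zbp1 and Mlkl co-deletions put Ccl8 0.99 ± 0.25 log2 higher with Zbp1 lost (SE). It missed the threshold (limma, adjusted p = 0.0560). It passed without Zbp1 -/- replicate 1 (1.15, adjusted p = 0.0245) and with group variance weights (0.99, adjusted p = 0.0128). In the main fit 0 of 10 members were called against 0.426% of all genes (3, Ccl8, Ccl20 and Ccl28, at an unadjusted p under 0.05). Among the Zbp1 -/- arrays, replicate 1, at 5.48, lay within the Mlkl -/- range, at the height of its highest arrays, and the other 4 lay above it. So Ccl8 was called against Fadd fl/fl in the Zbp1 co-deletion and not in the Mlkl co-deletion. The difference between the co-deletions themselves was not called in the main fit.

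**Figure D2:**
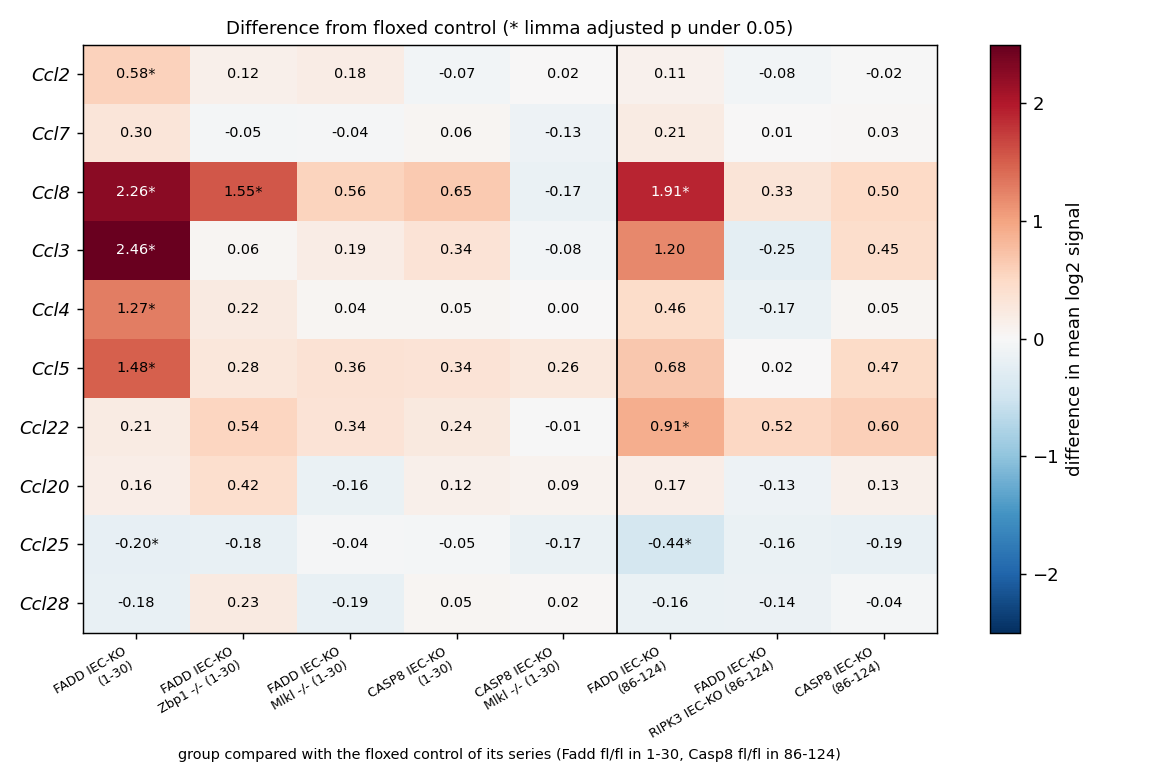
Difference in mean log2 signal between each knockout group (columns, 5 arrays each) and the 5 floxed arrays of its series, for the 10 members (rows); red is higher than control, blue is lower, and an asterisk marks a limma adjusted p under 0.05. Ccl8 has asterisks in FADD IEC-KO of both series (2.26 and 1.91) and in FADD IEC-KO Zbp1 -/- (1.55), and no other member has one in a co-deletion.

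Ccl2 and Ccl7, the other monocyte attractants, had smaller differences than Ccl8. Ccl2 read 6.09, 6.44, 6.42, 6.38 and 5.96 in Fadd fl/fl and 6.53, 7.97, 6.82, 6.67 and 6.21 in FADD IEC-KO replicates 21 to 25. Replicate 22 stood well above the rest, 4 knockout arrays lay above every control and replicate 25 lay among them. Ccl2 rose by 0.58 ± 0.18 log2 (limma, adjusted p = 0.0180), but by 0.30 without replicate 22 (adjusted p = 0.179) and by 0.51 without Fadd fl/fl replicate 30 (adjusted p = 0.0593). Ccl7 differed by 0.30 ± 0.14 log2 (adjusted p = 0.124). In series 86-124 the differences were 0.11 for Ccl2 and 0.21 for Ccl7, neither called by limma.

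The genes for Ccl2, Ccl7, Ccl11, Ccl12, Ccl8 and Ccl1 follow one another in this order on chromosome 11 in GRCm38.p6. Ccl12, which encodes a further monocyte attractant and lies next to Ccl8, rose with FADD loss by 1.03 ± 0.17 log2 in series 1-30 (limma, adjusted p = 0.000100) and by 0.91 ± 0.17 in series 86-124 (adjusted p = 0.000427). It was lower in FADD IEC-KO Zbp1 -/- than in FADD IEC-KO (-0.88 ± 0.17, adjusted p = 0.00126). Its mean there was 5.05 ± 0.35 (SD, n = 5) against 4.90 ± 0.26 in Fadd fl/fl, a difference of 0.15 log2 (95% interval -0.19 to 0.50, adjusted p = 0.788). For Ccl8 the same interval was 1.04 to 2.06, and whether the 2 genes' changes differ was not tested. Ccl12 also fell with Mlkl loss (by 0.55, adjusted p = 0.0459) and with RIPK3 loss (by 1.04, adjusted p = 0.00113).

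Among 13 other CC chemokines measured, Ccl12 was the 1 called with FADD loss in each series, beside 18.7% and 11% of all genes. With Zbp1 loss in FADD IEC-KO, Ccl11 and Ccl12 fell and Ccl21a, Ccl21b and Ccl21c rose, 5 of 13 beside 10.8% of all genes. Ccl11, an eosinophil attractant, fell by 0.55 log2 (limma, adjusted p = 0.0331). The Ccl21 genes are near-identical copies, Ccl21b and Ccl21c had the same values in every group, and their separate rises of 0.77 to 0.83 log2 are uncertain as to gene.

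Ccl3, Ccl4 and Ccl5 rose with FADD loss in series 1-30, with replicates 22 and 23 the highest arrays for each. Ccl3, whose product acts on CCR1, read 4.99, 4.80, 4.47, 4.68 and 4.01 in Fadd fl/fl. FADD IEC-KO replicates 21 to 25 read 4.99, 10.24, 8.90, 5.33 and 5.81. Replicates 22 and 23 were far above the other 3 knockout arrays, and the lowest knockout array lay just above the highest control. The mean rise was 2.46 ± 0.61 log2, or 5.52-fold (limma, adjusted p = 0.00374), and 0.79 log2 without replicates 22 and 23 (adjusted p = 0.424).

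In series 86-124 the knockout and control arrays of Ccl3 overlapped. Ccl3 in FADD IEC-KO replicates 89, 95, 117, 120 and 124 read 4.89, 4.61, 9.00, 4.52 and 7.19, against 4.52 to 5.38 in Casp8 fl/fl. Replicates 117 and 124 were high and the other 3 lay within the control range. The difference of 1.20 ± 0.61 log2 did not pass (limma, adjusted p = 0.210).

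Ccl4, a macrophage and T cell attractant, followed the same arrays. It read 5.43, 9.25, 7.44, 5.30 and 5.68 in FADD IEC-KO replicates 21 to 25, against 5.11 to 5.46 in Fadd fl/fl. Its rise of 1.27 ± 0.38 log2 (limma, adjusted p = 0.0150) became 0.61 without replicate 22 (adjusted p = 0.154) and 1.07 without replicate 23 (adjusted p = 0.0661). In series 86-124 it read 5.81, 5.04, 7.32, 5.10 and 6.39, with replicate 117 highest again, and was 0.46 log2 from its control (adjusted p = 0.478).

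Ccl5, a T cell and monocyte attractant, read 5.96, 9.14, 7.50, 6.34 and 6.65 in FADD IEC-KO replicates 21 to 25. In Fadd fl/fl it read 5.02, 5.50, 5.74, 6.07 and 5.83, so 4 knockout arrays lay above every control. It rose by 1.48 ± 0.36 log2 (limma, adjusted p = 0.00278), and by 0.68 without replicates 22 and 23 (adjusted p = 0.232). In series 86-124 the knockout arrays read 6.45, 6.08, 8.16, 5.08 and 6.89, and the difference of 0.68 did not pass (adjusted p = 0.225) but passed without replicate 120 (1.04, adjusted p = 0.0465). Ccl8 rose by 2.04 log2 without replicates 22 and 23 (adjusted p = 9.67e-05).

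**Figure D3:**
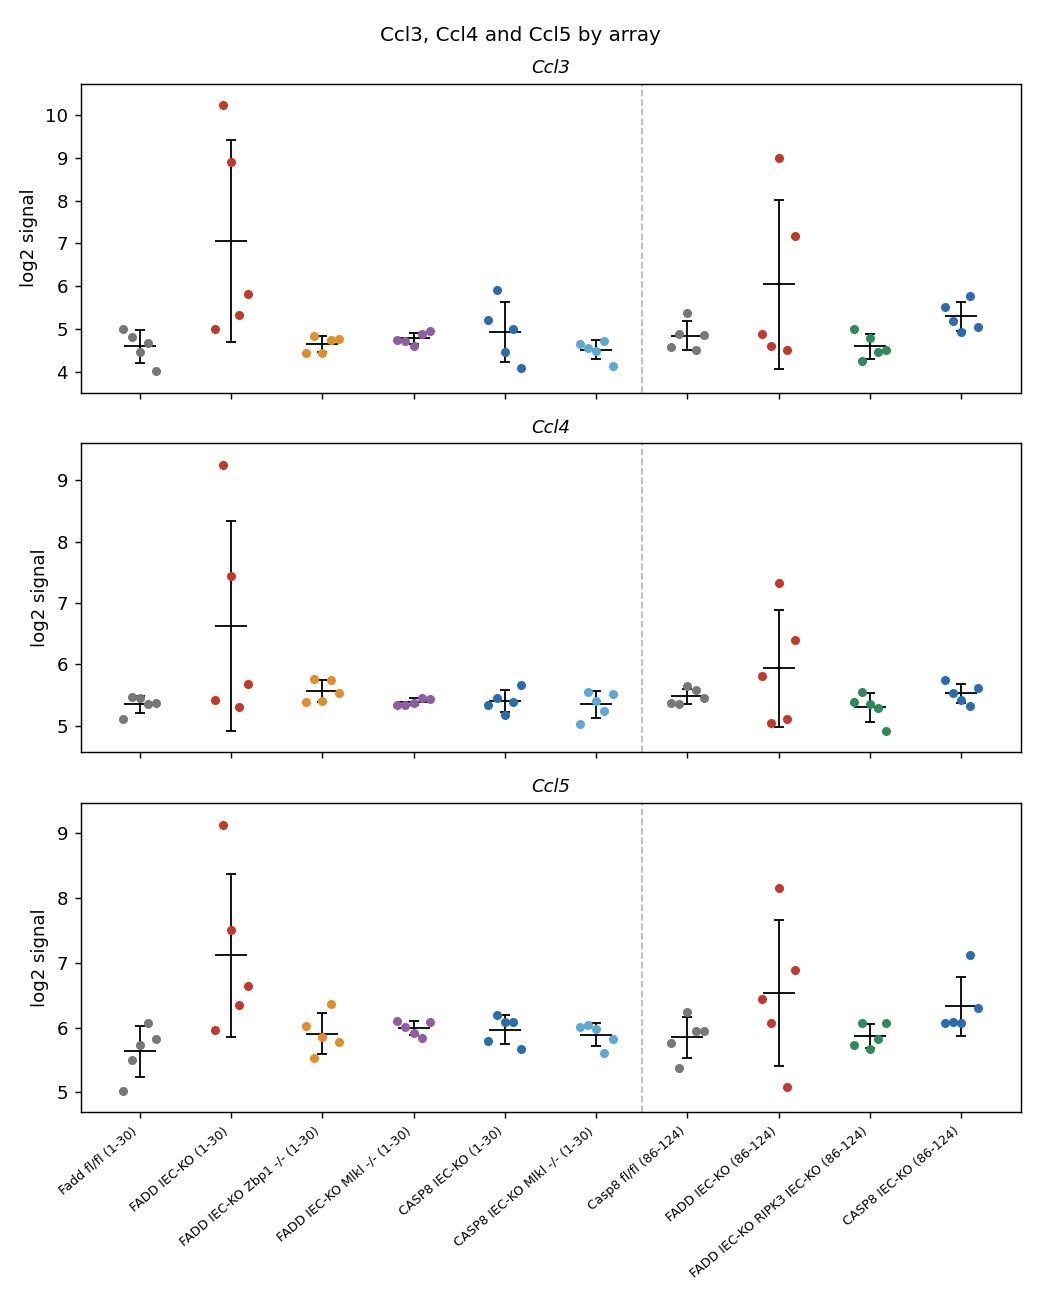
Log2 signal of Ccl3, Ccl4 and Ccl5 (vertical axes) by group, 1 point per array, with the mean and SD of 5 arrays; the dashed line parts the 2 series. In FADD IEC-KO the same arrays are highest in the 3 panels, replicate 22 (10.24 for Ccl3) in series 1-30 and replicate 117 (9.00 for Ccl3) in series 86-124.

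Neutrophil markers moved with these arrays. In FADD IEC-KO of series 1-30, 8 of 9 neutrophil markers rose, beside 8.59% of all genes called higher. S100a8 rose by 3.82 ± 0.89 log2 and S100a9 by 2.62 ± 0.69 (limma, adjusted p = 0.00212 and 0.00602). The mean of the 9 markers was 4.65, 8.68, 6.94, 5.02 and 5.18 in replicates 21 to 25, and 4.35 to 4.50 in Fadd fl/fl. In series 86-124, 1 of 9 rose (Csf3r), beside 11% of all genes called in either direction. The mean of the 9 was 4.55, 4.42, 7.35, 4.55 and 5.94 in replicates 89, 95, 117, 120 and 124, so the arrays high in Ccl3 were those high in neutrophil markers. In FADD IEC-KO Zbp1 -/- it was 4.47 to 4.74, and 0 of 9 passed against Fadd fl/fl by limma, beside 1.07% of all genes, with 0 also at an unadjusted p under 0.05. Ccl8 was at 5.48 to 6.67 in those mice. Within FADD IEC-KO, Ccl8 too was highest in replicates 22 and 23 of series 1-30 and in replicates 117 and 124 of series 86-124.

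Monocyte and macrophage markers were also higher in FADD IEC-KO: 10 of 13 rose and 2 fell in series 1-30, and 6 rose in series 86-124. Of all genes, 18.7% and 11% were called in these comparisons. The mean level of the 13 markers was 7.28 in Fadd fl/fl (7.09 to 7.64 by array), 7.80 in FADD IEC-KO of series 1-30 (7.51 to 8.32), 7.63 in FADD IEC-KO Zbp1 -/- (7.38 to 7.87) and 7.41 in FADD IEC-KO Mlkl -/-. None of the 13 passed in FADD IEC-KO Zbp1 -/- against Fadd fl/fl by limma, beside 1.07% of all genes. However, 11 of the 13 differences were positive, with a median of 0.35 log2, and 7 had an unadjusted p under 0.05: Adgre1, C1qa, C1qb, C1qc, Fcgr3, Ly6c2 and Lyz2. Genes of other marker lists were called too, beside the same 18.7% and 11% of all genes. All 10 smooth muscle markers fell in FADD IEC-KO of series 1-30, with a median of -1.20 log2, and 3 of 10 in series 86-124, with a median of -0.62. Of 8 T cell markers, 4 rose in series 1-30 and 1 in series 86-124, and their mean was 5.12 to 5.39 in Fadd fl/fl, 5.28 to 5.98 in FADD IEC-KO of series 1-30 and 5.12 to 6.29 in that of series 86-124, with replicate 117 highest. Of 9 B and plasma cell markers, 4 rose in series 1-30 and 1 in series 86-124. For T cell and for B and plasma cell markers, the 1 called in series 86-124 is near the share of all genes (11%). Of 8 eosinophil and mast cell markers, 4 rose and 1 fell in series 1-30, and 0 were called in series 86-124 by limma (1, Mcpt1, at an unadjusted p under 0.05). Counted in either direction, 4 of 10 epithelial markers were called in series 1-30 and 2 in series 86-124. Of 8 dendritic cell markers, 2 were called in series 1-30 and 0 in series 86-124 by limma (1, Ciita, at an unadjusted p under 0.05). Of 9 fibroblast and endothelial markers, 3 were called in each series. The part of these cell types in the chemokine changes was not tested.

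**Figure D4:**
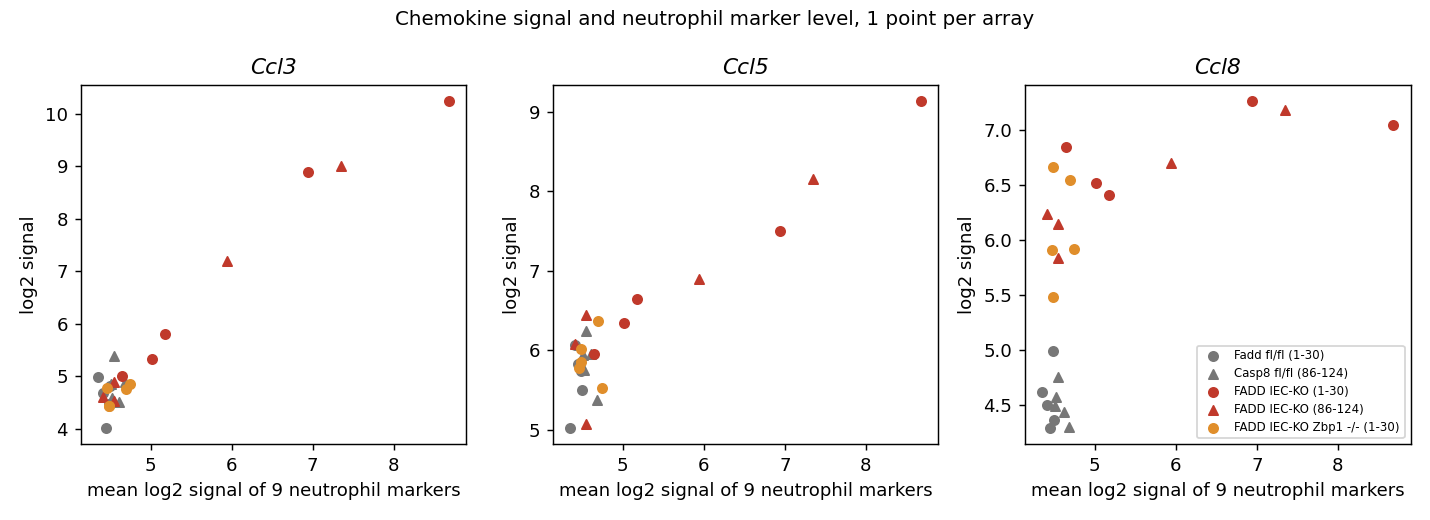
Log2 signal of Ccl3, Ccl5 and Ccl8 (vertical axes) against the mean log2 signal of 9 neutrophil markers (horizontal axes), 1 point per array, for floxed, FADD IEC-KO and FADD IEC-KO Zbp1 -/- mice; circles are series 1-30 and triangles 86-124. Ccl3, Ccl5 and Ccl8 are each highest at the right of their panels. Ccl8 also runs from 5.48 to 6.67 in the FADD IEC-KO Zbp1 -/- arrays. The neutrophil means of those arrays (4.47 to 4.74) lie near those of the floxed arrays (4.35 to 4.68).

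Ccl3 lay within the range of the control in the Zbp1 and Mlkl co-deletions. It read 4.44, 4.84, 4.43, 4.75 and 4.78 in FADD IEC-KO Zbp1 -/- and 4.75, 4.71, 4.60, 4.88 and 4.95 in FADD IEC-KO Mlkl -/-. Both groups lay within the range of Fadd fl/fl and below every FADD IEC-KO array. In series 86-124, Ccl3 averaged 4.60 ± 0.29 (SD, n = 5) in FADD IEC-KO RIPK3 IEC-KO and 6.04 ± 1.99 in FADD IEC-KO. It averaged 4.85 ± 0.34 in Casp8 fl/fl, and the difference with RIPK3 loss was not called by limma. Ccl3 fell by 2.41 ± 0.61 log2 with Zbp1 loss (limma, adjusted p = 0.00893) and by 2.28 ± 0.61 with Mlkl loss (adjusted p = 0.0195). The calls were lost without FADD IEC-KO replicate 22 (-1.61 and -1.48 log2, adjusted p = 0.0791 and 0.148) and without replicate 23 (-1.95 and -1.82, adjusted p = 0.0523 and 0.105).

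With Zbp1 loss 3 of 10 members were called, Ccl3 and Ccl5 lower and Ccl28 higher, beside 10.8% of all genes. Ccl5 fell by 1.21 ± 0.36 log2 (limma, adjusted p = 0.0230), and by 0.70 without FADD IEC-KO replicate 22 (adjusted p = 0.179). Its call was also lost without replicate 23 or without Zbp1 -/- replicate 2. With Mlkl loss Ccl3, Ccl4 and Ccl8 were called lower, 3 of 10 beside 5.85% of all genes. Ccl4 fell by 1.23 ± 0.38 log2 (adjusted p = 0.0433), and that call was lost when replicate 22, replicate 23 or any 1 of the Mlkl -/- arrays 11 to 15 was left out, with trend and robust moderation (adjusted p = 0.0554) and with the compared arrays alone (0.331). Ccl5 differed by -1.12 ± 0.36 log2 with Mlkl loss, just outside the threshold (adjusted p = 0.0501). It passed with quantile normalization (0.0482), without dim genes (0.0347), with group variance weights (0.0318) and without FADD IEC-KO replicate 21, 24 or 25 (-1.41 to -1.24 log2, adjusted p = 0.00686 to 0.0482). With neither replicate 22 nor 23, the Zbp1 difference of Ccl4 turned from -1.05 to 0.10 log2 (adjusted p = 0.905). Leaving out both arrays kept the Ccl8 fall with Mlkl loss, at -1.48 log2 (adjusted p = 0.0250).

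Of the epithelial chemokines, Ccl25 was lower in FADD IEC-KO than in the floxed control of each series, by small amounts. Ccl25, the ligand that brings CCR9 cells to the gut, read 8.02, 8.18, 8.02, 8.26 and 8.25 in Casp8 fl/fl. FADD IEC-KO arrays 89, 95, 117, 120 and 124 read 7.68, 7.59, 7.65, 7.94 and 7.65, all lower, with replicate 120 nearest to the control. It fell by 0.44 ± 0.07 log2 (limma, adjusted p = 0.000106). In series 1-30 it fell by 0.20 ± 0.07 (adjusted p = 0.0476), with the groups overlapping, and that call was lost without any 1 of FADD IEC-KO replicates 21, 22, 23 or 24 or Fadd fl/fl replicates 26, 27 or 28. It was also lost with quantile normalization (adjusted p = 0.0702), group variance weights (0.0853) and the compared arrays alone (0.20). In FADD IEC-KO RIPK3 IEC-KO it was 0.28 log2 above FADD IEC-KO (adjusted p = 0.0528), and passed without FADD IEC-KO replicate 120 (0.34, adjusted p = 0.0206). Mean Ccl25 in FADD IEC-KO was 7.73 in series 1-30 and 7.70 in series 86-124, against controls at 7.93 (Fadd fl/fl) and 8.15 (Casp8 fl/fl). In series 86-124, CASP8 IEC-KO (7.96) and FADD IEC-KO RIPK3 IEC-KO (7.99) also averaged below Casp8 fl/fl. The part of the unlike control lines in the larger fall was not tested.

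Ccl28, which binds CCR10 on plasma cell precursors, ran from 9.30 to 10.50 over all 50 arrays. FADD IEC-KO Zbp1 -/- replicates 1 to 5 read 9.93, 10.32, 10.50, 10.27 and 10.09, against 10.01, 9.30, 9.77, 9.92 and 10.10 in FADD IEC-KO. The groups overlapped and replicate 22 was the lowest. The rise with Zbp1 loss was 0.40 ± 0.11 log2 (limma, adjusted p = 0.0163), and 0.27 without replicate 22 (adjusted p = 0.122) or 0.33 without Zbp1 -/- replicate 3 (adjusted p = 0.0620). Against Fadd fl/fl it was 0.23 (adjusted p = 0.400).

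Ccl20, the CCR6 ligand whose window held the NF-kappaB match, was called in 0 of 19 comparisons by limma, with an unadjusted p under 0.05 in 1. Its group means ran from 6.10 in FADD IEC-KO Mlkl -/- to 6.68 in FADD IEC-KO Zbp1 -/-. Single arrays stood high: replicate 2 of FADD IEC-KO Zbp1 -/- read 7.75, replicate 17 of CASP8 IEC-KO read 7.42 and replicate 117 of FADD IEC-KO read 7.29. The difference of FADD IEC-KO from its control was 0.16 log2 in series 1-30 (95% interval -0.33 to 0.66) and 0.17 in series 86-124 (-0.33 to 0.66).

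Ccl22, the CCR4 ligand, was called with FADD loss in series 86-124. It read 6.33, 6.90, 7.38, 6.07 and 6.64 in FADD IEC-KO of series 86-124 and 5.40, 5.35, 6.45, 5.68 and 5.86 in Casp8 fl/fl. Control replicate 98 lay within the knockout range and the other 4 below it. Ccl22 rose by 0.91 ± 0.18 log2 (limma, adjusted p = 0.000686), whereas in series 1-30 the difference was 0.21 ± 0.18 (adjusted p = 0.464). The call in series 86-124 was lost in a fit of the compared arrays alone (adjusted p = 0.0632). The 2 effects differed by 0.70 ± 0.25 log2, which did not pass (adjusted p = 0.265).

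In the co-deletions with FADD loss, mean Ccl22 lay above that of its control without passing. It read 6.49, 6.00, 6.61, 6.66 and 6.60 in FADD IEC-KO Zbp1 -/- replicates 1 to 5 and 5.81 to 6.04 in Fadd fl/fl, with 4 of 5 arrays above every control. The difference was 0.54 ± 0.18 log2 (limma, adjusted p = 0.124), and it passed with group variance weights (adjusted p = 0.0387). In FADD IEC-KO Mlkl -/- it read 6.46, 6.16, 6.27, 6.16 and 6.32, all above every control, a difference of 0.34 ± 0.18 (adjusted p = 0.567). The SDs of these groups were 0.13 and 0.08, against 0.49 in FADD IEC-KO of the series, and the SE is shared by all groups. In FADD IEC-KO RIPK3 IEC-KO the difference from Casp8 fl/fl was 0.52 ± 0.18 (adjusted p = 0.260), with 1 of 5 arrays above every control. In CASP8 IEC-KO Mlkl -/- Ccl22 was -0.008 log2 from Fadd fl/fl, with 0 of 5 arrays above every control. In CASP8 IEC-KO of series 1-30 the difference was 0.24 log2, with 5 of 5 above. The share of all genes without overlap is not given for these comparisons. It is likewise not given where arrays of a co-deletion are said to lie beyond those of another group.

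**Figure D5:**
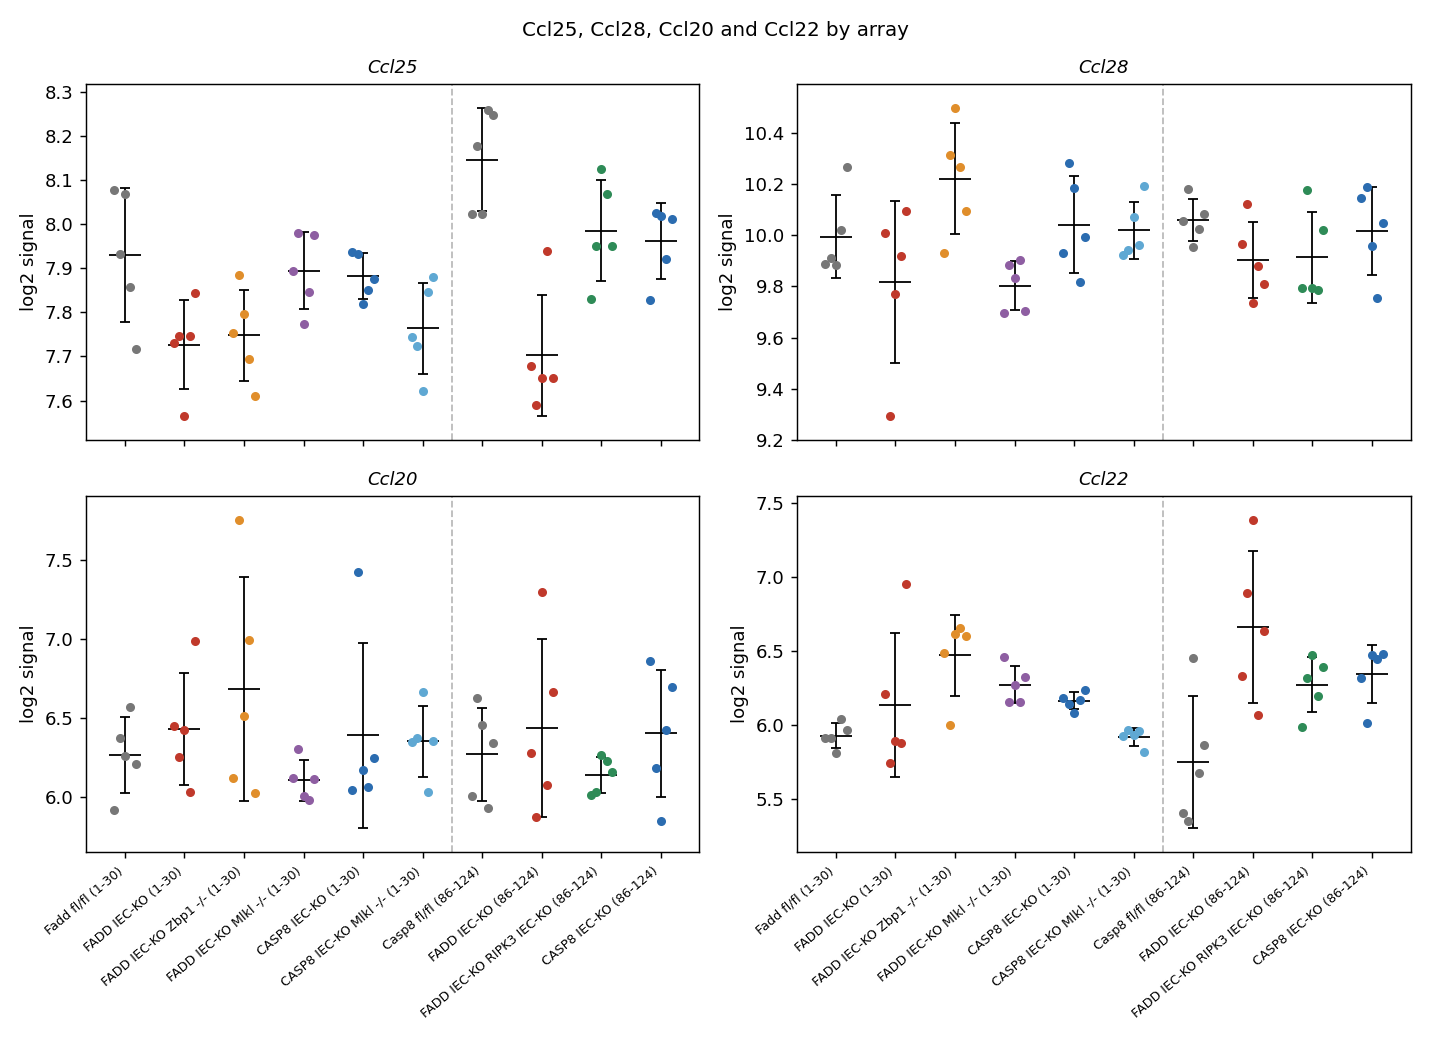
Log2 signal of Ccl25, Ccl28, Ccl20 and Ccl22 (vertical axes, each on its own scale) by group, 1 point per array, with the mean and SD of 5 arrays; the dashed line parts the 2 series. Ccl25 in FADD IEC-KO of series 86-124 ends at 7.94, below all Casp8 fl/fl arrays, and Ccl22 in the same series shows 1 control array, at 6.45, among the knockout arrays.

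No member was called with caspase-8 loss: against the floxed control 0 of 10 passed by limma in either series, beside 2.46% of all genes in series 86-124 and 0.123% in series 1-30. At an unadjusted p under 0.05 they were Ccl22 and Ccl25 in series 86-124 and Ccl8 in series 1-30. Ccl8 in CASP8 IEC-KO read 5.17, 6.04, 4.84, 4.75 and 5.24 in replicates 16 to 20, and 5.31, 4.64, 4.50, 5.80 and 4.81 in replicates 87, 92, 100, 104 and 108. Replicates 17 and 104 were the highest, and both groups overlapped their controls. The differences were 0.65 ± 0.25 log2 in series 1-30 (limma, adjusted p = 0.296) and 0.50 ± 0.25 in series 86-124 (adjusted p = 0.283). Ccl22 was 0.60 log2 above Casp8 fl/fl (adjusted p = 0.0595), and passed without Casp8 fl/fl replicate 98 (0.77, adjusted p = 0.0174) or CASP8 IEC-KO replicate 92 (0.68, adjusted p = 0.0348).

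Set directly against FADD IEC-KO, with both series averaged, CASP8 IEC-KO had Ccl8 lower by 1.51 log2 (-1.51 ± 0.18, limma adjusted p = 2.61e-07), Ccl3 lower (-1.43 ± 0.43, adjusted p = 0.0421) and Ccl25 higher (0.21 ± 0.05, adjusted p = 0.0152). These were 3 of 10 members, beside 5.13% of all genes. The highest CASP8 IEC-KO array for Ccl8, replicate 17 at 6.04, lay above the lowest FADD IEC-KO array, replicate 120 at 5.84. The Ccl3 call was lost without any 1 of 11 arrays: CASP8 IEC-KO replicates 16, 18, 19, 20, 92, 100 or 108, or FADD IEC-KO replicates 22, 23, 117 or 124. The Ccl3 and Ccl25 calls were also lost with the compared arrays alone (adjusted p = 0.308 and 0.124) and with group variance weights (0.0514 and 0.0509). The Ccl8 call held in every alternative in which Ccl8 was tested, between -1.61 and -1.40 log2.

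Adding Mlkl loss to caspase-8 loss put Ccl8 at 4.23, 4.98, 4.19, 4.31 and 4.23 in replicates 6 to 10. With the exception of replicate 7 these lay below every CASP8 IEC-KO array of the series. The difference was -0.82 ± 0.25 log2 (limma, adjusted p = 0.126), and 0 of 10 members were called by limma, beside 0.421% of all genes (1, Ccl8, at an unadjusted p under 0.05). The effect of Mlkl loss on Ccl8 was 0.89 ± 0.36 log2 smaller in size in CASP8 IEC-KO than in FADD IEC-KO, and this interaction did not pass (adjusted p = 0.340). By limma, 0 of 10 members passed in the interaction, beside 0.0154% of all genes, and 0 of 10 between the 2 Mlkl co-deletions, beside 0.457%. At an unadjusted p under 0.05 these counts were 5 (Ccl3, Ccl4, Ccl5, Ccl8 and Ccl25) and 1 (Ccl8).

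Of 10 CC chemokine receptor genes measured, Ccr1, Ccr2 and Ccrl2 rose with FADD loss in each series and the other 7 were not called, 3 of 10 in each series beside 18.7% and 11% of all genes. Ccr1, a receptor for CCL3 and CCL5, rose by 1.68 ± 0.29 log2 in series 1-30 and 0.93 ± 0.29 in series 86-124 (limma, adjusted p = 0.000120 and 0.0282). Ccr2, which marks inflammatory monocytes, rose by 1.31 ± 0.28 and 1.05 ± 0.28 (adjusted p = 0.00104 and 0.0108). All 3 were lower in CASP8 IEC-KO than in FADD IEC-KO. Ccr1 fell with Zbp1 loss (by 1.14) and with Mlkl loss (by 1.09, limma adjusted p = 0.00832 and 0.0164). With RIPK3 loss 0 of 10 receptors were called by limma, beside 0.754% of all genes, with 4 (Ccr1, Ccr2, Ccr8 and Ccrl2) at an unadjusted p under 0.05.

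In FADD IEC-KO Zbp1 -/-, Ccr2 averaged 5.88 ± 0.45 (SD, n = 5) against 5.17 ± 0.24 in Fadd fl/fl, a difference of 0.70 ± 0.28 log2 that did not pass (limma, adjusted p = 0.238). Atypical receptors take up chemokines without signalling for movement. Of the 3 genes listed as such, 0 were called with FADD loss in either series by limma, beside 18.7% and 11% of all genes. At an unadjusted p under 0.05 there were 0 in series 1-30 and 1, Ackr4, in series 86-124. Ccrl2, a chemokine receptor-like gene, was counted among the receptors above and not in this list. Ackr1 and Ackr2 rose with Zbp1 loss in FADD IEC-KO, 2 of 3 beside 10.8% of all genes, by 0.44 ± 0.13 and 0.52 ± 0.14 log2 (limma, adjusted p = 0.0194 and 0.0130). In FADD IEC-KO Zbp1 -/- against Fadd fl/fl, 0 of 3 were called by limma, with 2 (Ackr1 and Ackr2) at an unadjusted p under 0.05.

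Of 12 measured cytokines known to induce chemokines of this family, Tnf, Il1a, Il1b, Il6 and Osm rose in series 1-30, 5 of 12 beside 18.7% of all genes, with Il1b at 3.55 ± 0.86 log2 and Tnf at 2.32 ± 0.43 (limma, adjusted p = 0.00301 and 0.000275). In series 86-124, Tnf (1.59 ± 0.43, adjusted p = 0.0115) and Il1b (2.56 ± 0.86, adjusted p = 0.0462) rose, 2 of 12 beside 11% of all genes. Ifng, the main macrophage-activating interferon, differed by 0.56 ± 0.30 (adjusted p = 0.201) and 0.36 ± 0.30 (adjusted p = 0.482). In FADD IEC-KO Zbp1 -/- against Fadd fl/fl 0 of 12 passed by limma, beside 1.07% of all genes, and 0 at an unadjusted p under 0.05, with Tnf at 0.57 ± 0.43 and Ifng at -0.10 ± 0.30.

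The genes whose pattern over the 10 group means was nearest to that of Ccl8, by root mean square difference of centred log2 means, were H2-DMa (0.31), H2-DMb1 (0.31), Igtp (0.32), Tnfsf10 (0.33) and Ly6c2 (0.34). H2-DMa and H2-DMb1 encode the chains that load peptides on class II molecules, Igtp an interferon-induced GTPase, Tnfsf10 the death ligand TRAIL and Ly6c2 a monocyte surface protein. Relative to its own mean over groups, Tnfsf10 stood at 0.58 log2 in FADD IEC-KO Zbp1 -/- and -0.74 in Fadd fl/fl. The other 4 stood between 0.04 and 0.15 in FADD IEC-KO Zbp1 -/- and between -0.97 and -0.54 in Fadd fl/fl. Ccl8 itself, before centring, averaged 6.10 and 4.55 in the same groups. Among the members, Ccl3 (0.50) was nearest to Ccl8 and Ccl25 (0.91) the farthest. These distances are a description of 10 means that share their arrays.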

How the data were processed

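Total RNA of frozen colon (100 ng) was labelled with the GeneChip WT PLUS kit, per the labels' protocols. The authors deposited a table of log2 signal, 1 value per probe set and array, made with Affymetrix Expression Console and Transcriptome Analysis Console, per the submitters' processing notes. Neither versions nor normalization are stated there, and no detection calls were used, so no gene was called absent. Arrays have no read depth, and their number limits the precision.

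Of 22142 probe sets, 19527 carried 1 gene symbol and 2615 none in the platform annotation. The probe set with the highest mean was kept for a symbol, 33 others were dropped, and 19494 genes were tested. All 50 arrays entered one limma model (version 3.58.1, R 4.3.3) with a mean for each group, which left 40 residual degrees of freedom, moderated by empirical Bayes. The 19 comparisons were contrasts of group means, within a series except for the 2 single knockouts (averaged over the series), the floxed controls and the tests between series. Adjustment was by Benjamini-Hochberg across all genes, with a threshold of 0.05. The procedure was tested on simulated data with 1 spread per gene for all groups, which cannot check the effect of unequal spreads. SEs and 95% intervals come from this fit, which uses 1 spread per gene for all groups. The spreads of the groups differed: for Ccl3 the SD was 2.36 in FADD IEC-KO of series 1-30 and 0.14 in FADD IEC-KO Mlkl -/-. The SEs can therefore be too wide where arrays varied little and too narrow for FADD IEC-KO.

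The members, the lists (receptors, atypical receptors, other CC chemokines, cytokines, cell markers) and the tests were chosen with earlier results of these data known. All members were named, with up to 4 genes of each list by smallest adjusted p (or the 2 largest differences where none passed), the 5 genes most like Ccl8 without predicted genes, and marker lists by counts and means. Ifng, and Ccl12, Tnf and Ccr2 in FADD IEC-KO Zbp1 -/-, were named after their values were seen. Alternatives were leaving out the dimmest 40% of genes, quantile normalization, a fit of the compared arrays alone, trend and robust moderation, group variance weights, the mean of a gene's probe sets, and leaving out each array or FADD IEC-KO replicates 22 and 23 together. RefSeq (GRCm38.p6) gave gene order and promoter windows.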

Additional observations from a re-analysis of the deposited data

Results flagged for a closer look

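In 100 tests of 10 members in 10 groups of 5 arrays, 8 arrays stood far from the other 4 of their group by Dixon's test at the 95% level, and chance flags about 1 in 20 such groups. For Ccl8, FADD IEC-KO RIPK3 IEC-KO replicate 112 read 5.56 against 4.59 to 4.72 in the others, and CASP8 IEC-KO Mlkl -/- replicate 7 read 4.98 against 4.19 to 4.31. Ccl5 in CASP8 IEC-KO replicate 104 read 7.12 against 6.07 to 6.30. Ccl7 in FADD IEC-KO replicate 22 read 7.27 against 6.15 to 6.47. Ccl20 in CASP8 IEC-KO replicate 17 read 7.42 against 6.04 to 6.24. Ccl22 read 6.00 in FADD IEC-KO Zbp1 -/- replicate 2 against 6.49 to 6.66, and 5.82 in CASP8 IEC-KO Mlkl -/- replicate 10 against 5.92 to 5.96. Ccl25 in FADD IEC-KO replicate 120 read 7.94 against 7.59 to 7.68.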

How the results depend on the processing

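Of 3443 values of single members under the alternatives, 3326 kept their direction where called and their side of the threshold, 69 lost it, 48 gained it and 0 reversed. A further sign change occurred in 153 of these values, none of which passed in either setting. The Ccl8 rise in FADD IEC-KO of each series, its rise in FADD IEC-KO Zbp1 -/- and its falls with Mlkl and RIPK3 loss passed under each alternative that tested it. Removing the dimmest 40% of genes also removed Ccl8, Ccl3 and Ccl4, and the cause of that loss is the filter itself. Counts of members passing are listed where they changed by a ratio above 1.5, or from or to 0. Smaller changes are left out, such as the loss of Ccl22 for FADD IEC-KO against Casp8 fl/fl with the compared arrays alone. Other causes were not tested. For FADD IEC-KO against Fadd fl/fl (6) the count was 3 without dim genes, 1 with the compared arrays alone and 1 without replicates 22 and 23. For the single knockouts (3) it was 1 with the compared arrays alone, with group weights and without those replicates. For Zbp1 loss (3) it was 0 with the compared arrays alone and without those replicates, and for Mlkl loss in FADD IEC-KO (3) it was 1 in both and without dim genes. For RIPK3 loss (1) it was 2 with trend and robust moderation. For FADD IEC-KO Zbp1 -/- against Fadd fl/fl (1) it was 0 without dim genes and 2 with group weights. From 0 it rose to 1 for CASP8 IEC-KO against Casp8 fl/fl (quantile normalization, and without dim genes), for Mlkl loss in CASP8 IEC-KO (group weights) and for the 2 Mlkl co-deletions against each other (compared arrays alone, and group weights). For the Zbp1 against the Mlkl co-deletion it rose from 0 to 1 without dim genes and to 2 with group weights (Ccl8 and Ccl28).

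Leaving out 1 array at a time gave 3 to 6 members for FADD IEC-KO in series 1-30, 3 to 4 in series 86-124, 2 to 6 for the single knockouts, 0 to 7 for Zbp1 loss, 1 to 4 for Mlkl loss, 1 to 2 for RIPK3 loss, 0 to 2 for the Zbp1 against the Mlkl co-deletion and 0 to 1 for CASP8 IEC-KO in series 86-124. It gave 1 to 1 for FADD IEC-KO Zbp1 -/- against Fadd fl/fl. Without FADD IEC-KO replicates 22 and 23, genes called fell from 3650 to 682 for FADD IEC-KO in series 1-30, from 2096 to 121 for Zbp1 loss, from 1140 to 8 for Mlkl loss and from 1000 to 135 for the single knockouts. With the compared arrays alone these were 1784, 184, 51 and 41. No paired analysis was possible because no replicate number occurs in more than 1 group. Dim genes such as Ccl8, at the 29.9th percentile of mean signal over genes, had no detection call here.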
